A study of Danio rerio with 4 samples.

Results

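ABCC9 (ENSDARG00000015985), KCNJ8 (ENSDARG00000045589) and KCNE4 (ENSDARG00000068257) are 3 genes for potassium channel subunits, taken by gene ID from the 32105 Ensembl IDs of a read count table of sorted zebrafish brain cells. All 3 had reads in every library and were among the 17283 genes that passed the filter on low counts. The 4 libraries form a single group. Each came from EGFP-positive cells of wild-type adult zebrafish that carry an EGFP transgene under pdgfrb regulatory sequence, the cells being sorted from a pool of 6 brains after Liberase digestion and the RNA being amplified before sequencing. The titles call the samples pericytes, a cell type tag calls them muLEC (mural lymphatic endothelial cells), and the design text speaks of 3 preparations where 4 are listed. No column of the table carries a sample's number. The libraries are named B1 to B4 after the columns. There is no unsorted or EGFP-negative sample, and the results below describe levels in the sorted cells and how far the 4 pools differ.

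KATP channels are potassium channels closed by ATP and opened when the energy state of the cell falls, and their opening hyperpolarises the membrane. KCNJ8 encodes the inward rectifier pore subunit Kir6.1 and ABCC9 the sulfonylurea receptor SUR2, which surrounds the pore and senses nucleotides and channel-opening drugs. In mammals both genes are known as markers of brain pericytes and are expressed in vascular smooth muscle, where the channel sets resting tone. KCNE4 encodes a small single-pass membrane protein that joins voltage-gated potassium channels and, in mammalian cells, reduces currents through KCNQ1 and some KCNA channels. In the RefSeq annotation of the GRCz12tu assembly abcc9 and kcnj8 are neighbouring protein-coding genes, as are abcc8 and kcnj11, the other sulfonylurea receptor and pore pair. The gene kcne4 lies between acsl3a and scg2a.

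Library totals ran from 33270774 reads (B1) to 40441253 reads (B4). Levels are in CPM, the reads per 1e+06 reads of a TMM-scaled library, and 3 reads made up 0.0751 to 0.0879 CPM. All intervals below cover counting error only. B1 stood apart from the other libraries. It held the highest value of 36.0% of tested genes and the lowest value of 43.7%, and 450 tested genes (2.60%) reached at least 8 times the median of the other 3 libraries there, against 42 to 78 genes in each of the others. The levels and ratios of the 3 genes below are therefore given with and without B1. The labels give the 6 brains of a pool and no other separation of the samples, so the p-values speak of the spread of these pools, a spread that can be technical. Transcript lengths were not used here, so levels of different genes are levels of reads and not of transcripts.

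The pore subunit gene KCNJ8 varied least of the 3. It stood at 14.3 CPM in B1, 10.9 CPM in B2, 9.66 CPM in B3 and 10.3 CPM in B4, from 489, 404, 346 and 410 reads. The exact 95% Poisson interval of B1 (13.1 to 15.7 CPM) lay above those of the other libraries, which overlapped each other between 8.67 and 12.1 CPM. The mean was 11.3 ± 2.09 CPM (SD, n = 4). The highest library was 1.40 times the median of the other 3, a ratio that 64.4% of tested genes reached or passed. Over B2 to B4 the mean was 10.3 ± 0.639 CPM (SD, n = 3) and the highest library was 1.13 times the lowest, less than for 92.0% of tested genes.

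The receptor gene ABCC9 had its lowest level where KCNJ8 had its highest. It stood at 11.0 CPM in B1, 12.8 CPM in B2, 21.4 CPM in B3 and 18.7 CPM in B4, from 374, 472, 767 and 749 reads. B1 and B2 were low with overlapping intervals (9.88 to 12.1 and 11.7 to 14.0 CPM), and B3 and B4 were high with overlapping intervals (19.9 to 23.0 and 17.4 to 20.1 CPM). The mean was 15.98 ± 4.92 CPM (SD, n = 4), and 17.7 ± 4.42 CPM without B1 (SD, n = 3). The highest library was 1.68 times the median of the others, as 45.5% of tested genes were or more.

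The accessory subunit gene KCNE4 was set by B1. It stood at 955 CPM in B1, 107 CPM in B2, 116 CPM in B3 and 98.9 CPM in B4, from 32586, 3958, 4164 and 3951 reads. The mean of 319 ± 424 CPM (SD, n = 4) lay in none of the libraries, while the mean without B1 was 107 ± 8.72 CPM (SD, n = 3). B1 was 8.88 times the mean of the other 3, a ratio that 1.77% of tested genes reached. Among the 397 tested genes within 1.5 times its mean level, 3.27% had a highest library that far above the median of the others. The mean used for this match was itself raised by B1, so these genes do not match the level of KCNE4 in B2 to B4. Over B2 to B4 the highest library was 1.18 times the lowest, although the Poisson intervals of these 3 libraries did not overlap. This spread was smaller than that of 86.7% of all tested genes, and of 78.8% of the 397 matched genes.

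**Figure D1:**
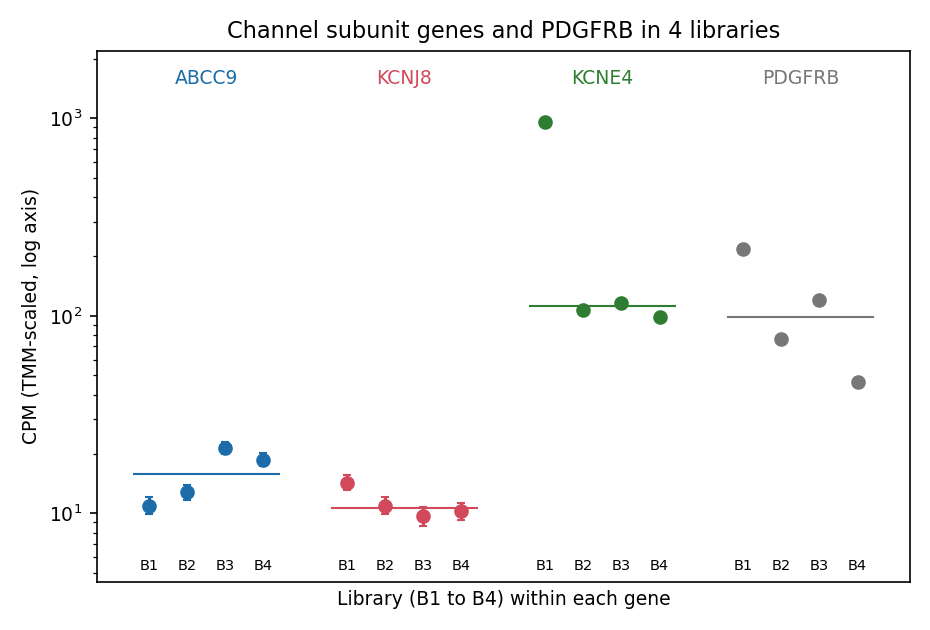
Levels of ABCC9, KCNJ8, KCNE4 and PDGFRB in CPM on a log axis, 1 point per library (B1 to B4), with exact 95% Poisson intervals of the counts as error bars (smaller than the points for KCNE4 and PDGFRB) and the median of 4 libraries as a line. KCNE4 is 955 CPM in B1 and 98.9 to 116 CPM in the others, KCNJ8 stays between 9.66 and 14.3 CPM, and ABCC9 is lowest in B1.

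The same order of libraries was found in the second deposited table, which gives the authors' YuGene score, a value between 0 and 1 that follows the rank of a gene within its library. KCNJ8 scored 0.378 in B1, against 0.303, 0.278 and 0.289 in B2 to B4. ABCC9 scored 0.316 in B1, against 0.338, 0.485 and 0.443. KCNE4 scored 0.984 in B1, against 0.845, 0.866 and 0.840, and it was the 104th most abundant ID in B1 against ranks 1309, 1141 and 1382 in B2, B3 and B4. The score rises with the count within a library, so it is no independent measurement.

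**Figure D2:**
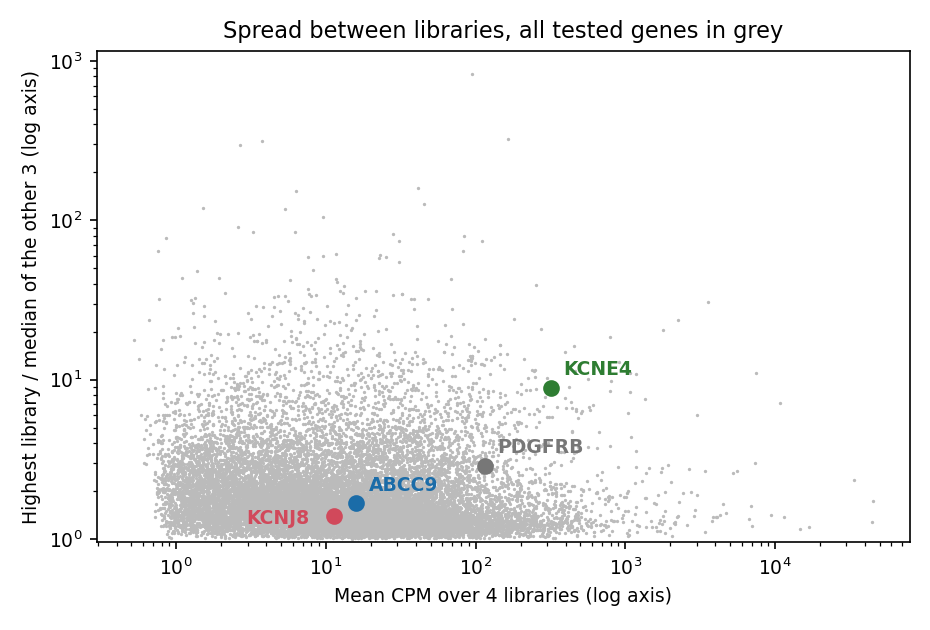
Highest library over the median of the other 3 (log axis) against mean CPM (log axis) for 17283 tested genes in grey, with KCNE4, ABCC9, KCNJ8 and PDGFRB marked. KCNE4 lies at 8.91, above nearly all genes of like mean CPM, a mean that B1 itself raised. ABCC9 at 1.68 and KCNJ8 at 1.40 lie within the bulk of the genes.

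Relative to the common level of the tested genes, KCNE4 was abundant and the KATP pair was not. Each gene's fitted level was compared with the median tested gene, 12.6 CPM, by edgeR's quasi-likelihood test (two-sided, Benjamini-Hochberg adjusted over 17283 genes). By this test 36.8% of all tested genes lay above that level and 33.2% below it. KCNE4 lay above it by 4.66 ± 0.62 log2 units (SE, adjusted p = 2.53e-05), and by 3.09 without B1. ABCC9 at 0.34 ± 0.24 (adjusted p = 0.232) and KCNJ8 at -0.16 ± 0.22 (adjusted p = 0.53) did not pass, although ABCC9 passed without B1 (log2 0.49, edgeR adjusted p = 0.037). The adjusted p of ABCC9 ran from 9.87e-06 to 0.851 over the alternatives and that of KCNJ8 from 4.01e-05 to 0.878, both calls depending on the filter that sets the median gene.

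ABCC9 and KCNJ8, whose products share a channel, did not keep a constant proportion of reads. ABCC9 gave 43.3% of the reads of the pair in B1 (exact 95% binomial interval 40.0 to 46.7%), 53.9% in B2 (50.5 to 57.2%), 68.9% in B3 (66.1 to 71.6%) and 64.6% in B4 (61.8 to 67.4%). The intervals of B1 and B2 overlapped neither each other nor those of B3 and B4, which overlapped. The reads of the pair together varied less, from 23.7 to 31.1 CPM (27.3 ± 3.37, SD, n = 4). The log2 ratio of ABCC9 to KCNJ8 averaged 0.46 ± 0.69 (SD, n = 4), was positive in 3 of 4 libraries and spanned 2.90-fold. Its SD was close to that of a usual gene against KCNJ8, since 51.6% of tested genes had a smaller one and the median was 0.67.

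The ratios that involve KCNE4 split B1 from the other libraries. KCNE4 had 66.6 times the reads of KCNJ8 in B1, against 9.79, 12.0 and 9.63 times in B2, B3 and B4. Without B1 this log2 ratio was 3.38 ± 0.18 (SD, n = 3), and it spanned 1.25-fold. KCNE4 had 87.0 times the reads of ABCC9 in B1, against 8.38, 5.43 and 5.27 times in the others. Against KCNJ8, 91.7% of tested genes had a smaller SD of the log2 ratio than KCNE4, and against ABCC9 96.1% had.

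**Figure D3:**
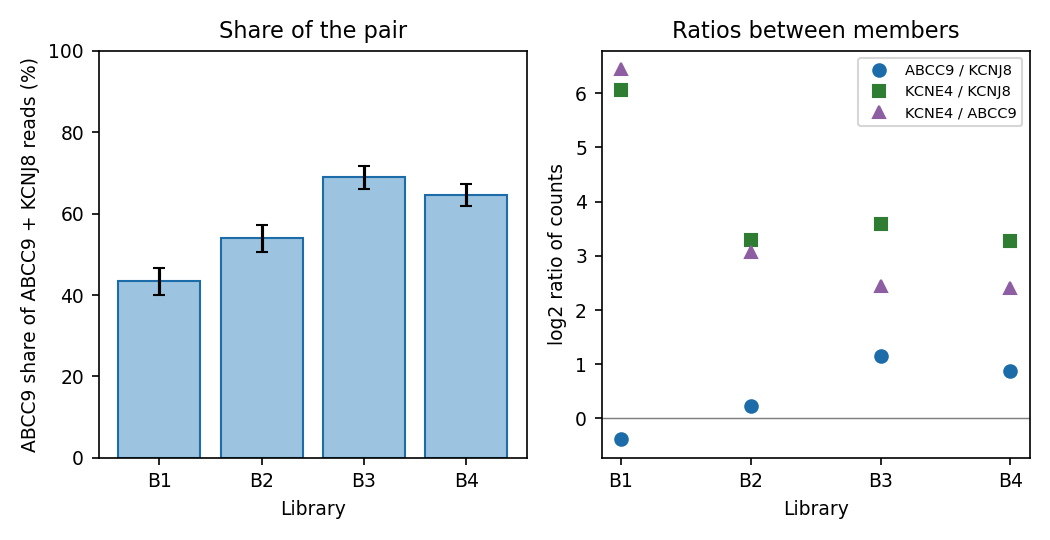
Left, the share of ABCC9 in the reads of ABCC9 and KCNJ8 together (%), by library, with exact 95% binomial intervals. Right, log2 ratios of counts between the 3 genes by library, with KCNE4 over KCNJ8 at 6.06 in B1 and between 3.27 and 3.59 in the others.

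PDGFRB encodes the receptor whose regulatory sequence drove the sort, and stood at 219, 76.0, 121 and 46.0 CPM in B1 to B4. KCNJ8 had 0.0655, 0.144, 0.0800 and 0.223 times the reads of PDGFRB in these libraries. ABCC9 had 0.0501, 0.168, 0.177 and 0.407 times its reads. KCNE4 had 4.36, 1.41, 0.961 and 2.15 times its reads, above PDGFRB in 3 of 4 libraries. The highest library of PDGFRB was 2.63 times its lowest over B2 to B4, against 1.13 times for KCNJ8 and 1.18 times for KCNE4. For ABCC9 it was 1.68 times, above the 1.49 times of the median tested gene. Over the 6 ratios (3 between the channel genes, 3 to PDGFRB) the exact two-sided sign-flip test on 4 libraries cannot go below p = 0.125. It gave adjusted p = 0.188 for KCNE4 over KCNJ8 (log2 4.05 ± 1.35, SD, n = 4) and over ABCC9 (3.59 ± 1.93), and for ABCC9 (-2.67 ± 1.24) and KCNJ8 (-3.13 ± 0.81) over PDGFRB, each with 1 direction in 4 of 4 libraries. KCNE4 over PDGFRB (0.92 ± 0.93) had an exact adjusted p of 0.3 and ABCC9 over KCNJ8 one of 0.375. Without B1 the log2 ratio of KCNE4 to ABCC9 was 2.63 ± 0.37 (SD, n = 3), or 6.21-fold against 12.0-fold over all 4 libraries, and that of ABCC9 to KCNJ8 was 0.75 ± 0.47. The ratios to PDGFRB without B1 were -2.12 ± 0.72 for ABCC9, -2.87 ± 0.74 for KCNJ8 and 0.51 ± 0.58 for KCNE4.

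Other mural genes did not share 1 pattern over the libraries. NOTCH3, a receptor of mural cells, was highest in B1 at 352 CPM against 91.4, 111 and 124 CPM in B2, B3 and B4 (mean 170 CPM, and 109 CPM without B1). RGS5, a regulator of G protein signalling, was lowest there at 21.2 CPM, against 75.2, 65.7 and 34.5 CPM. Its copy rgs5b was lowest in B1 too, at 26.8 CPM against 679.6, 204 and 178 CPM (mean 272 CPM, and 136 CPM without B2). KCNE4 therefore had B1 as its highest library, as PDGFRB and NOTCH3 did, and KCNJ8 did so by a smaller margin. ABCC9 had B1 as its lowest, as the RGS5 copies did. Such a shared extreme is common, since B1 was highest for 36.0% of all tested genes and lowest for 43.7%. In the ordering by likeness of pattern given below, RGS5 ranked only 6074th and rgs5b 9083rd of 9402 genes to ABCC9.

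The sorted cells held RNA of other cell types, and in bulk RNA fewer cells of a type and less RNA per cell cannot be told apart. Summed over 16 IDs, pericyte markers reached 758 CPM in B1 against 653 to 1278 CPM in the others. The highest of these sums, in B2, held 679.6 CPM of rgs5b. Of the 12 tested pericyte IDs 4 were highest in B1. Radial glia markers over 13 IDs reached 26982 to 52935 CPM, with their lowest sum in B1. A GLUL copy (ENSDARG00000099776) had 6530 CPM in B1 against 18839 to 22271 CPM, and FABP7 (ENSDARG00000007697) 1570 against 7139 to 11475 CPM. In contrast SLC1A2 (ENSDARG00000102453), at 10577 CPM in B1 against 6563 to 11802 CPM, was not lowest there. Nor was SLC1A3 (ENSDARG00000043148), at 1572 against 767 to 1955 CPM. Neuron markers (14 IDs) summed to 739 CPM in B1 against 166 to 282 CPM in the others, and endothelial markers (11 IDs) to 331 CPM against 52.6 to 89.3 CPM. One CLDN5 copy (ENSDARG00000043716) made up most of the endothelial sum of B1, at 239.6 CPM against 11.0 to 20.3 CPM in the others, and the other 10 IDs summed to 91.6 CPM in B1 against 74.4, 52.4 and 32.4 CPM. The receptor gene kdrl was highest in B1, at 49.8 CPM against 7.16 to 20.6 CPM, and the cadherin gene cdh5 was highest in B2, at 2.14 CPM in B1 against 2.13 to 6.47 CPM. Oligodendrocyte markers (9 IDs) summed to 2323 CPM in B1 against 1383 to 3978 CPM, with OLIG2, a lineage transcription factor, at 104 CPM against 10.7 to 14.7 CPM. By contrast mbpa, which had the highest mean of this list, was lowest in B1, at 362 CPM against 732 to 2595 CPM. So was mbpb, at 16.2 CPM against 26.4 to 54.7 CPM. Of the 9 oligodendrocyte IDs 6 were highest in B1, as were 12 of 12 tested neuron IDs and 3 of 10 tested endothelial IDs, against 36.0% of all tested genes. Smooth muscle markers (14 IDs) summed lowest in B1, at 263 CPM against 303 to 546 CPM. Of their 9 tested IDs 2 were highest there, CNN1 and MYH11 (ENSDARG00000009782, 98.3 CPM against 32.3 to 51.8 CPM). Fibroblast markers (9 IDs) summed highest in B3, at 5395 CPM against 960 to 1863 CPM. Most of that sum was col1a1a, COL1A1 and COL1A2, at 1375, 1232 and 1572 CPM in B3. DCN was highest in B3 too, LUM, PDGFRA and twist1a in B2, and FBLN1 and twist1b in B4. The sums over the lymphatic and muLEC list (9 IDs) were 358 CPM in B1 against 198 to 275 CPM, and 5 of its 9 IDs were highest there, among them the scavenger receptor genes stab1 (38.2 CPM against 8.41 to 16.01 CPM) and stab2 (43.5 CPM against 12.2 to 18.2 CPM). PROX1 was 7.79 CPM in B1 against 5.55 to 8.30 CPM, and lyve1b was lowest there, at 4.72 CPM against 6.36 to 15.1 CPM. Microglia markers (14 IDs) summed to 1425 CPM in B1 against 1343 to 3346 CPM. Most of this sum was apoeb, at 1241 CPM in B1 against 934 to 2620 CPM. Of the 11 tested microglia IDs 4 were highest in B1. Among these were ptprc (34.4 CPM against 2.57 to 5.78 CPM) and LCP1 (13.0 CPM against 3.11 to 4.64 CPM). The more abundant cd74a and cd74b went the other way and were lowest in B1. There cd74a had 55.1 CPM against 149 to 304 CPM, and cd74b had 30.4 CPM against 177 to 452 CPM. The part of these cells in the high KCNE4 of B1, or in the levels of ABCC9 and KCNJ8, was not tested.

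**Figure D4:**
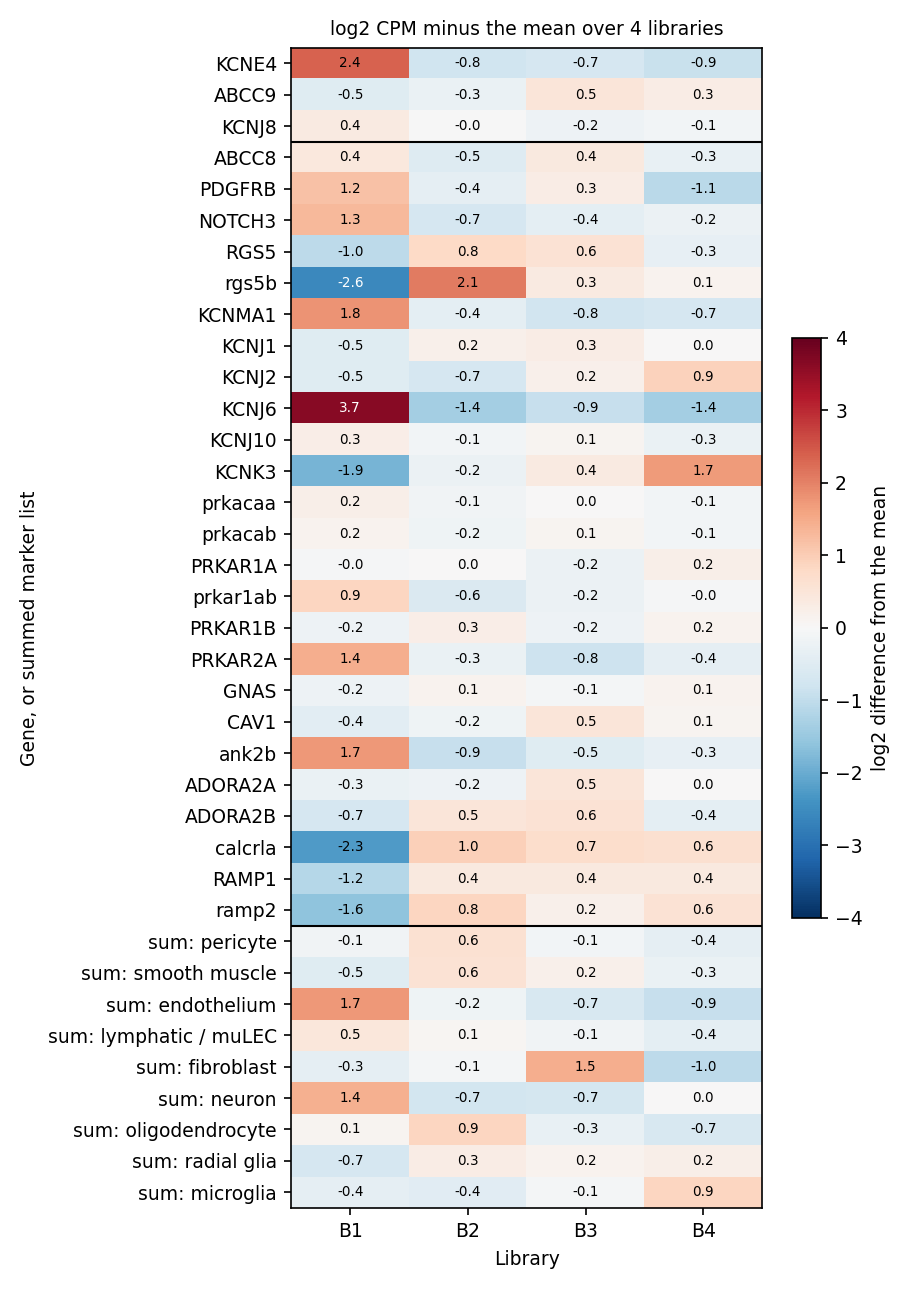
Difference of log2 CPM from the gene's own mean over 4 libraries, for the 3 channel subunit genes (top), other channel, mural and regulator genes of at least 10 CPM (middle) and the summed CPM of 9 marker lists (bottom). In B1 KCNE4 is 2.4 log2 units above its mean, beside KCNJ6 at 3.7 and KCNMA1 at 1.8, whereas rgs5b and calcrla are 2.6 and 2.3 below theirs. KCNJ6 and KCNMA1 reach a mean of 10 CPM only through B1.

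Among the other KATP subunit genes 1 copy of ABCC8, which encodes the sulfonylurea receptor SUR1, was well detected. ABCC8 (ENSDARG00000051879) stood at 41.9, 22.0, 41.3 and 25.7 CPM in B1 to B4 and lay above the median gene (log2 1.37, edgeR adjusted p = 0.00136). The second ABCC8 copy (ENSDARG00000077007), at 1.29 ± 0.704 CPM (SD, n = 4), and the pore subunit gene kcnj11, at 2.13 ± 1.86 CPM, lay below it (edgeR adjusted p = 0.00266 and 0.0101). The mean of kcnj11 was 1.23 CPM without B4, where it had 4.83 CPM. The related gene kcnj11l had at most 3 counts in a library and was not tested. KCNJ8 thus had more reads than kcnj11 in each library, and ABCC9 fewer reads than the abundant ABCC8 copy in each. Reads of near-identical copies may have been split between them by the counting.

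Of 44 IDs of other potassium channel genes, 23 were tested, 2 of which lay above the median gene and 13 below it (8 neither), against 36.8% and 33.2% of all tested genes. The median tested ID stood at 3.23 CPM. The 2 above were ABCC8 and KCNJ10, the gene of the glial inward rectifier Kir4.1, at 30.4 ± 4.86 CPM (SD, n = 4, ENSDARG00000090815). Channels that KCNE4 is known to modulate in mammals were low, with 4 of 5 tested IDs below the median gene. By edgeR 0 lay above it, also at an unadjusted p under 0.05, and DESeq2 and limma-voom gave 0 too, while with no filter on level KCNMA1 lay above. Of these partners kcnq1.1 had 0.908, 5.93, 0.503 and 0 CPM in B1 to B4 and kcnq1.2 at most 0.264 CPM, and neither was tested. KCNQ5 stood at 4.00 ± 2.57 CPM (SD, n = 4) and the KCNA1 copies at 1.30 ± 1.34 and 1.46 ± 0.734 CPM, all below it. The mean of the first KCNA1 copy (ENSDARG00000017108) was 0.652 CPM without B4, where it had 3.25 CPM. KCNMA1, the gene of the calcium-activated BK channel, was the partner with at least 10 CPM, at 33.4 CPM in B1 against 7.31, 5.59 and 6.01 CPM (mean 13.1 CPM, and 6.30 CPM without B1, then below the median gene with edgeR adjusted p = 0.00548).

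Inward rectifier and two-pore genes of at least 10 CPM were few. KCNJ2, whose product Kir2.1 is a rectifier of vascular cells, had 12.1, 10.6, 19.6 and 32.2 CPM in B1 to B4, and a KCNJ1 copy (ENSDARG00000002666) 11.7, 18.8, 20.1 and 16.5 CPM. KCNJ6, the gene of a G protein-gated rectifier of neurons, had 133 CPM in B1 against 4.10 to 5.61 CPM in the others, and its mean was 36.8 CPM, or 4.62 CPM without B1. KCNK3 (ENSDARG00000043466), a two-pore channel gene, ran the other way at 3.31, 10.2, 15.3 and 39.3 CPM, with a mean of 17.0 CPM, or 9.63 CPM without B4. None of these 4 passed in the comparison of all 4 libraries with the filter of at least 1 CPM in 2 libraries. With no filter on level all 4 lay above the median gene, and with at least 10 CPM in 2 libraries KCNJ1 lay below it. Without B1 KCNJ1 and KCNJ2 joined ABCC8 and KCNJ10 above the median gene by edgeR, 4 IDs in all, and KCNJ6 lay below it (log2 -1.45, edgeR adjusted p = 0.00248).

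Genes of the signals that open or place KATP channels were better represented, with 10 of 17 tested IDs (of 21) above the median gene, 2 below and 5 neither, against 36.8% and 33.2% of all tested genes. Their median tested level was 35.8 CPM. The 5 that were neither were PRKAR1A (mean 12.5 CPM), PRKAR2B (7.22 CPM), GNAS (11.6 CPM), ADORA2B (15.9 CPM) and RAMP1 (14.8 CPM). Among the 10 above were prkar1ab, at 42.5 CPM (32.9 CPM without B1), and PRKAR1B, at 35.8 CPM. Protein kinase A, which opens vascular KATP channels, was present through its catalytic subunit genes prkacaa at 51.8 ± 6.30 CPM and prkacab at 40.3 ± 4.30 CPM (SD, n = 4). The regulatory subunit gene PRKAR2A was at 463 CPM in B1 against 97.0 to 142 CPM (mean 209 CPM, and 124 CPM without B1). The receptor for CGRP and adrenomedullin acts through this kinase. Its gene calcrla stood at 10.7 CPM in B1, against 100.1, 84.4 and 80.0 CPM in the others, and its partner gene ramp2 at 17.2 CPM, against 93.9, 59.6 and 77.1 CPM. Both were lowest in B1, as ABCC9 and 43.7% of all tested genes were. In the ordering by likeness of pattern given below, calcrla ranked only 8318th and ramp2 7053rd of 9402 genes to ABCC9. The adenosine receptor gene ADORA2A (21.7 ± 5.39 CPM, SD, n = 4) lay above the median gene (log2 0.78, edgeR adjusted p = 0.0125), a call lost without B3 or without B4 (p of 1.28e-06 to 0.165 over the alternatives). The caveolin gene CAV1, whose product holds these channels in caveolae, stood at 110 ± 29.6 CPM. The ankyrin gene ank2b was at 102 CPM in B1 against 16.03 to 24.4 CPM (mean 41.0 CPM, and 20.7 CPM without B1).

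Genes were also ordered by how like their pattern over the 4 libraries was to each of the 3, as the root mean square difference of log2 CPM centred on each gene, over the 9402 other genes with a symbol and a mean of at least 10 CPM. ABCC9 and KCNJ8 were 0.59 log2 units apart, farther than the median candidate was from ABCC9 (0.55) or from KCNJ8 (0.52). PDGFRB was 1.08 from ABCC9, 0.70 from KCNJ8 and 0.81 from KCNE4, whose median candidate was 1.46 away. The genes most like KCNE4 were TNIP1, VAT1, SPSB3, WDR20 and si:ch73-211l13.2 (0.06 to 0.10), and 124 candidates (1.32%) lay within 0.25. Since the limit was on the mean over 4 libraries, a gene high in B1 could become a candidate through B1 alone. That was so for si:ch73-211l13.2, at 64.2 CPM in B1 against 5.58 to 7.20 CPM in the others. These names and this count depend in part on that limit. VAT1, a vesicle membrane protein gene, had 2431 CPM in B1 against 237 to 277 CPM, and OLIG2 ranked 63rd at 0.20. Of the same oligodendrocyte list mbpa ranked 9031st at 2.23. The genes most like ABCC9 were mutyh, RAB24, SLC25A47, MARCHF5 and MEST (0.02 to 0.05), with 538 candidates within 0.25, CAV1 ranking 27th at 0.10. Those most like KCNJ8 were creb1a, SLTM, YTHDF3, thap7 and MACO1 (0.02), with 1468 within 0.25. Such likeness rests on 4 values that share their libraries, and leaving out a library kept at most 2 of the 5 names.

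In RefSeq the span of abcc9 overlaps plxnb2a.3 and 2 non-coding genes, that of kcnj8 1 non-coding gene and that of kcne4 2. Whether the counting used strand is not given in the sources used here, so reads of overlapping genes cannot be told apart. The count table lists plxnb2a.3 with 8 to 17 reads per library against 374 to 767 for ABCC9, and acsl3a, beside kcne4, with 103 reads in B1 against 32 to 54 in the others.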

How the data were processed

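The authors deposited a table of raw whole-number counts for each gene ID and library, and a second table of YuGene scores between 0 and 1. The submitters' processing notes name bcl2fastq, R 3.2.2 and GRCz10. The aligner, the counting tool and its strand setting were not given in the sources used here. Symbols were found for 26269 of 32105 IDs. Counts were scaled by TMM (edgeR 4.0.16, R 4.3.3), and genes of at least 1 CPM in 2 libraries were tested. Levels were compared with the median fitted CPM by an F test from edgeR's quasi-likelihood fit, checked on simulated counts. The simulation gave all genes the same variation between libraries and set no library apart, so it does not cover a library such as B1. It called 50 of 50 genes set at 4 times the median and 50 of 50 at 0.25 times. At 2 times it called 33 of 50, at 0.5 times 28 of 50, and at the median itself 8 of 200. Ratios used a prior count of 0.5, and likeness one of 2. DESeq2 1.42.0, limma-voom (limma 3.58.1), other scalings and filters, and leaving out each library were alternatives. No transcript lengths were at hand, so the planned length term was dropped.

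List entries took IDs with the same symbol or with a short suffix of copies after it, which also took AIF1L into the microglia list, and 12 entries matched no ID, among them KCNE1, KCNE2, KCNE3 and KCNE5. The rule for named genes took the 3 genes, PDGFRB, NOTCH3, the RGS5 copies, listed channel and regulator IDs of at least 10 CPM, all other KATP subunit IDs, and the 5 genes most like each of the 3. Markers, partner channels under 10 CPM and neighbours were named after their values were seen. The 3 genes and all lists were chosen with earlier results of these data known. The endothelial sum without 1 ID was added after seeing the data. A result on a withheld item is not reported here.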

Additional observations from a re-analysis of the deposited data

Results flagged for a closer look

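Of 37 sets of 4 library values examined, 9 had 1 library far from the other 3, by the gap to the nearest library as a share of the whole range, at Dixon's 95% limit for 4 samples. Chance flags about 1 in 20 such groups, and 16.6% of all tested genes passed the same limit. The 37 sets also held YuGene scores and ratios of the same genes. They are therefore not independent, and that share over single genes is no like measure for all of them. The library apart was B1 in all 9. It was high for KCNE4 (0.98), KCNMA1 (ENSDARG00000079840, 0.938), KCNJ6 (ENSDARG00000058985, 0.988), PRKAR2A (ENSDARG00000033184, 0.878), ank2b (ENSDARG00000043313, 0.903) and NOTCH3 (ENSDARG00000052139, 0.875). It was low for RAMP1 (ENSDARG00000056704, 0.998), the gene of a partner of the CGRP receptor, which had 6.12 CPM in B1 against 17.7 to 17.8 CPM in the others. The log2 ratios of KCNE4 to KCNJ8 (0.885) and of KCNE4 to ABCC9 (0.835) were high in B1 too. KCNMA1 and KCNJ6 met the limit of 10 CPM on the mean only through B1 (6.30 and 4.62 CPM without it). That limit favoured a high B1 in these genes, so their flags are no separate finding. For how many of all tested genes over Dixon's limit B1 was the library apart was not counted.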

How the results depend on the processing

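No paired analysis was possible because the libraries form a single group. The 6 ratios were rerun only with a prior count of 2 and without each library, since scaling cancels within a library. The direction of their means did not change. KCNE4 stayed above the median gene in each setting of the level test. Scaling by library totals, by DESeq2 size factors or by TMM factors of the tested genes alone (the last chosen after seeing the data) changed no call of the 3 genes, nor did DESeq2 or limma-voom. The filter changed what the median gene is. Without a filter 12310 genes lay above it and 11536 below, against 6365 and 5743, ABCC9 passed at log2 2.35 and KCNJ8 reversed to 1.85. Then 9 other channel IDs lay above, and 5 regulator IDs below. With at least 10 CPM in 2 libraries 3160 genes lay above and 2511 below, ABCC9 reversed to -0.89 and KCNJ8 passed at -1.39. Then 0 of 6 channel IDs lay above (0 at an unadjusted p under 0.05, edgeR alone run) and 2 below, and 5 regulator IDs above and 4 below. Leaving out each library gave log2 levels of 0.077 to 0.49 for ABCC9, 2 to 4 channel IDs above and 1 to 3 regulator IDs below. It gave edgeR biological coefficients of variation of 0.276 to 0.492 for ABCC9, 0.258 to 0.470 for KCNJ8 and 0.222 to 0.830 for KCNE4, against 0.423, 0.395 and 0.844. For KCNE4 the highest library was 1.13 to 9.27 times the median of the others, the lowest of these without B1. Among the 5 genes most like each member, 0 to 2 were shared for ABCC9 and for KCNJ8, and 0 to 1 for KCNE4. With candidates of at least 1 CPM 3 were shared for ABCC9. The settings without a length term are the ones reported, since no length was used. Several of the untested channel genes had no more than a few reads, and the part of depth in this was not tested. Others failed the rule of at least 1 CPM in 2 libraries with more reads, such as kcnq1.1 with 219 in B2.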
